A study of Mus musculus and synthetic construct with 21 samples.

Results

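At 750 genomic sites in pool 1 of a massively parallel reporter assay (MPRA), activity was compared between an element with an altered PPAR motif and the native element of the same site. In an MPRA, a pool of designed enhancer elements is transfected, each on a reporter plasmid with barcodes of its own, and the RNA reads of a barcode are divided by its plasmid reads. The elements were those with the class codes wd and wt at the start of their names. They are read here as the altered and the native form of the w class, since the names do not spell out the codes. They were paired by site number and made up 1500 of the 22463 elements in the 7 reporter tables of the series.

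The cells were 3T3-L1, mouse pre-adipocytes that can be driven to become adipocytes. The inducers were insulin at 1.7 µM, dexamethasone at 1 µM and IBMX at 0.5 mM, in medium with fetal serum, and RNA was taken 16 h after transfection. Every element of the pool was transfected together into the same cells, so both forms shared their treatment. Pool 1 had 1 RNA library of 34801803 counts and 1 plasmid library of 48330091 counts. Because neither library had a replicate, spreads below are over sites or over the barcodes of an element, and no p-value covers variation between cultures. The reporter sat on a plasmid, outside the chromatin of the genomic site.

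PPARγ is the nuclear receptor that directs fat cell differentiation. It pairs with RXR, and the dimer recognises a DR1 motif, in which 2 copies of a sequence close to AGGTCA follow each other in the same direction with 1 base between them. In this dimer PPARγ takes the first copy and also touches bases just before it, while RXR takes the second copy. At a DR1 in an adipocyte enhancer, other factors bound nearby contribute to the output, and related nuclear receptors can occupy the same motif.

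Each element name carries a 16-base sequence, and the native and the altered element of a site carry the same one. The changed bases of the altered form are not spelled out in the names and are not given here. In all 750 sequences the best match to 2 copies of AGGTCA with 1 free base between them, called the consensus here, among its placements on either strand, was found or tied at the same place, with the first copy at positions 4 to 9, the spacer at position 10 and the second copy at positions 11 to 16. The sequences of the 10 sites with the largest fall after alteration are shown first, because they carry the main contrast. Those of the 4 sites called higher in the altered form follow. Both copies are in capitals, all are from the deposited names, 5′ to 3′ on the strand stated, and coordinates are of mm9, counted from 1.
Site 548, chr11:90067250-90067265, plus strand: agaGAGGCAaAGGGCA
Site 100, chr19:38841002-38841017, minus strand: ggtAGGGCAaAGGGGA
Site 39, chr1:157643103-157643118, plus strand: ttgGGGTGAgAGGTGA
Site 660, chr1:89744214-89744229, minus strand: aatGGGTGAaAGTGCT
Site 142, chr3:30881176-30881191, plus strand: tctGGGCAAaAGGGTA
Site 126, chr8:90491393-90491408, plus strand: actAGGCCAgAGTTCA
Site 199, chr3:41089098-41089113, plus strand: acaTGCACAaAGGTCA
Site 77, chr1:195104830-195104845, minus strand: tggAAGTGAaAGGTGA
Site 519, chr14:65999480-65999495, minus strand: tccAGGACAcAGGTCA
Site 201, chr19:4135560-4135575, minus strand: tgtAGGTAAaAGTTTA
Site 509, chr9:55101544-55101559, plus strand: tcaAAGCCAaAGGTGA
Site 485, chr7:3560877-3560892, plus strand: tccAGGTCAaAGGTCT
Site 600, chr4:131429287-131429302, plus strand: accAGAGCAaAGGACA
Site 292, chr16:24874566-24874581, plus strand: tgtAGGTGAaAGGACA

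The 10 sequences with the largest fall had between 1 and 5 mismatches to the consensus. The closest of the 14 printed sequences, each with 1 mismatch, were those of site 519, called lower, and of site 485, called higher. The sites were not assigned to genes, because no annotation of the mm9 build was used here.

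Activity was lower in the altered than in the native form at most w sites, by an amount that differed widely from site to site. Activity is the median over barcodes of log2 RNA over plasmid, each scaled to its library total, so that at 0 a barcode takes the same share of the RNA as of the plasmid library (the library average below). Altered elements had a median activity of -0.44 (from -1.59 to 3.64, n = 750), and native elements a median of 0.09 (from -1.98 to 4.57, n = 749). The middle 50% of altered elements lay between -0.66 and -0.13, and that of native elements between -0.32 and 0.81. Native elements were thus both higher and more widely spread, with an interquartile range of 1.13 against 0.52 in altered elements.

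The altered minus native difference had a median of -0.51, which corresponds to 0.703 times the native activity. Its quartiles were -1.12 and -0.13, and its extremes -3.82 and 2.43. The altered form was below the native form at 623 of 749 sites and above it at 126. The difference was below -1 at 207 sites (27.6%), below -2 at 45 (6.01%) and below -3 at 4, while it was above 1 at 8. At 346 sites (46.2%) it lay within 0.5 of 0 in either direction. A large loss was therefore a property of a minority of w sites.

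Each site was tested over its barcodes with limma, in 1 fit over all w and c sites of pool 1 with Benjamini-Hochberg adjustment over all 1495 tested sites. Of 745 tested w sites, 212 were lower in the altered form at an adjusted p under 0.05, or 28.5%, against 15.7% of all tested sites of the pool. The c sites, whose native elements carry the same 16 bases at other genomic places, supplied the rest of that background with 23 of 750 (3.07%). In the altered form 4 w sites were higher (0.537%), against 0.736% of all sites and 0.933% of c sites. At an unadjusted p under 0.05 by limma, 301 w sites were lower (40.4%) and 11 higher (1.48%). The share over all sites at this threshold is not given here, so these 2 counts do not set w sites apart. At 53 w sites (7.11%) every altered barcode lay below every native barcode, against 3.81% of all tested sites and 0.533% of c sites. Of the 45 sites with a difference below -2, the test called 42.

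The called and the uncalled sites differed in their native level far more than in their altered level. At the 212 sites called lower, the altered form had a median activity of -0.42 and the native form of 1.21. At the 529 sites with no call, these medians were -0.46 and -0.16. The calls were made from the same values, so these medians describe the called sites and test nothing.

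Because each element had up to 9 barcodes, the precision at a single site could be read from its barcodes. A median of 9 barcodes per altered and per native element had at least 20 plasmid counts. The barcode SD of an element had a median of 0.63 in altered and 0.65 in native elements, and the standard error of the difference at a site a median of 0.326. The difference computed from the even-numbered and from the odd-numbered barcode columns correlated over 741 sites (Pearson r = 0.605, Spearman rho = 0.571). The SD over sites was 0.79 for all barcodes, and the part shared by both sets of barcodes corresponded to an SD of 0.67. The spread between sites was thus larger than the error from barcodes. A single site with a difference below its standard error cannot be told from 0, and one above it need not pass. Site 704, with a mean difference of -0.56 ± 0.255, was not called (SE, limma adjusted p = 0.162). Both barcode sets came from the same libraries.

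The strongest falls came mostly from highly active native elements whose altered form stood near or below the library average. At site 548 the 9 altered barcodes ranged from -2.13 to 0.77 with a median of -0.31, and the 9 native barcodes from 1.61 to 4.37 with a median of 3.51. The barcodes of the forms did not overlap, and the altered element kept 0.0707 of the native activity. The difference of medians was -3.82 and the mean difference -3.64 ± 0.393 (SE, limma adjusted p = 1.98e-07).

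At site 100 altered barcodes had a median of 0.22 and reached 0.98, while native barcodes had a median of 3.60 and went no lower than 1.81. Site 39 had altered barcodes from -1.58 to -0.29 and native barcodes from 0.85 to 3.14, with medians of -0.58 and 2.62. Site 660 had medians of -0.53 in altered and 2.53 in native form, and site 142 of -0.24 and 2.70. The forms did not overlap at any of these 4 sites either. Site 142 and site 660 carry 5 mismatches each, so their sequences stand far from the consensus.

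Of the remaining 5, sites 126, 199, 519 and 201 had altered medians between -0.38 and 0.65, against native medians between 2.41 and 3.55. Site 519 had the highest altered median of the 10, at 0.65, with no barcode below 0.31. At site 199 the forms overlapped narrowly, since altered barcodes reached 0.74 and native ones went down to 0.64. Site 77 was the least certain of the 10. Its altered barcodes ranged from -2.96 to 2.39 and overlapped the native ones, which ranged from -0.32 to 2.31, and the limma adjusted p was 0.003. With RNA and plasmid counts summed over barcodes, the difference at site 77 was only -0.049. Its difference of medians, -2.90, was -1.31 in the odd-numbered barcodes, where the call was lost (limma adjusted p = 0.559), and -4.40 in the even-numbered ones.

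At 4 w sites the altered form was called more active, which is the opposite of the common direction. Their share, 0.537% of tested w sites, was below that of all tested sites (0.736%) and of c sites (0.933%). The count of rises thus does not set w sites apart. Site 509 had an altered median of 0.70 (barcodes from -0.93 to 1.15) and a native median of -0.71 (from -1.20 to 0.84), with a mean difference of 1.15 ± 0.29 (SE, limma adjusted p = 0.00625). The ranges overlapped, and the native element was below the library average. Site 292 was active in both forms, with an altered median of 2.91 (from 2.19 to 3.47) and a native median of 1.90 (from 0.96 to 2.32). These ranges overlapped only between 2.19 and 2.32, and the mean difference was 1.08 ± 0.237 (SE, limma adjusted p = 0.00167).

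Site 485, which differs from the consensus at 1 base, had medians of 2.71 in the altered and 1.42 in the native form (limma adjusted p = 0.041). Site 600 had medians of 1.56 in the altered and 0.33 in the native form (limma adjusted p = 0.0304), from 8 altered and 6 native barcodes. All 4 of these sites lost the call in at least 1 setting with fewer barcodes or another count minimum. At site 485 the adjusted p ranged up to 0.288 and at site 600 up to 0.553 in these settings.

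The 3 largest differences above 0 were not called. Site 559 had a difference of 2.43, from 436 RNA and 415 plasmid counts in the altered form and 87 RNA and 322 plasmid counts in the native form (limma adjusted p = 0.128, n = 5 and 3 barcodes). With no minimum beyond 1 plasmid count per barcode, its difference was -0.50, of the opposite sign. Site 50, with a difference of 1.97, had 1 altered barcode and was not tested. Site 668 had a difference of 1.57 (limma adjusted p = 0.104), but its odd-numbered barcodes gave 0.054. The largest fall without a call was -2.31 at site 377 (limma adjusted p = 0.055).

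Some w elements stayed active with the motif altered. As a yardstick for low activity served the altered c elements, of which 95% lay below -0.095. Above that level stood 172 of 750 altered w elements (22.9%) and 449 of 749 native w elements (59.9%). Of those 449 sites, 301 fell to or below the level in the altered form, and 148 (33%) stayed above it. Of the 300 sites whose native form was not above the level, 277 stayed there in the altered form, and the test called 1 of 297 lower, against 211 of 448 among the others. Activity of the native form and a fall after alteration were thus found at the same sites, a relation that the calculation of the difference partly builds in.

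The most active altered element was that of site 179, with a median of 3.64 (barcodes from 1.65 to 4.09), against 4.53 (from 2.94 to 5.01) in the native form. The barcodes overlapped, and the difference of -0.89 did not pass (limma adjusted p = 0.0744). Site 17 followed with medians of 3.30 in the altered and 3.77 in the native form. One native barcode stood at -0.81, far from that median, and the mean difference was 0.09, opposite in sign to that of its medians, with limma adjusted p = 0.953. Site 583 had 2.98 in the altered and 2.83 in the native form (limma adjusted p = 0.595), and site 292 was described above. The altered form kept 0.538 of the native activity at site 179 and 0.72 at site 17, and by medians was not below the native form at sites 583 and 292. These sites were picked for a high altered level. Site 322, also printed below, kept less and is described next.
Site 179, chr10:37200256-37200271, minus strand: actGTGGCAcAGGTCA
Site 17, chr7:86926073-86926088, plus strand: tgtGGGTGAaGGGCCA
Site 583, chr4:135514470-135514485, plus strand: agtAGGGCAaAGAGCC
Site 322, chr7:135093083-135093098, plus strand: tgtGGGTAAaAGTGCA

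Site 322 had the highest native level of all w sites and fell in the altered form. Its altered median was 2.83 (barcodes from 0.56 to 4.26) and its native median 4.57 (from 3.97 to 5.35), with a mean difference of -2.01 ± 0.368 (SE, limma adjusted p = 0.000269). The altered element kept 0.3 of the native activity and was still among the 5 most active of its form. Sites 560 and 319, also among the 5 highest by native level, fell as well, with medians of 1.51 and 2.00 in the altered form and 3.86 and 3.75 in the native form (limma adjusted p = 0.0219 and 0.0108). Both lost the call with the odd-numbered barcodes (limma adjusted p = 0.260 and 0.0856), site 560 also by exact permutation of barcodes (adjusted p = 0.0791) and site 319 with the even-numbered barcodes (limma adjusted p = 0.241). At the low end, the native medians of sites 559, 668, 727, 453 and 599 lay between -1.98 and -1.22. None of these 5 passed (limma adjusted p from 0.104 to 0.971), and only site 453 had a lower median in its altered form. Picking sites by their native level partly builds in the direction of the difference at both ends.

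The fall grew with the native level also when level and fall came from different barcodes. Sites were divided into 5 groups of about equal size by their native level in the odd-numbered barcode columns, and the difference was then taken from the even-numbered columns, which leaves out the errors that both would share through a barcode. From the lowest to the highest group, the median difference was -0.15, -0.20, -0.44, -0.85 and -1.61, with 148 or 149 sites in each. The SD over sites within a group was between 0.58 and 0.87. The altered form was lower at 144 of 148 sites in the highest group and at 96 of 149 in the lowest. Spearman rho over 741 sites was -0.583, and -0.560 with the barcode sets exchanged, as a description of sites that share their libraries. Native activity itself still enters both measures.

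By the level of the altered form, grouped in the same way, the median fall covered a narrower range. In 5 groups by the altered level in odd-numbered barcodes, the median difference in even-numbered barcodes was -0.43, -0.40, -0.58, -0.59 and -0.78 from the lowest to the highest. With the barcode sets exchanged it was -0.37, -0.59, -0.60, -0.48 and -0.71. Altered levels also repeated less well between the barcode sets than native levels (rho = 0.444 against 0.783), which limits this comparison. Altered and native level themselves correlated over 749 sites with rho = 0.430 and r = 0.594. In the group with the highest altered level, even-numbered barcodes gave medians of 0.27 in the altered and 1.15 in the native form.

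Median differences were similar across most classes of closeness to the DR1 consensus. Over 749 sites, the number of mismatches and the difference had rho = 0.0791 (r = 0.0610), too weak to be a finding. The median difference was -0.61 at 33 sites with 1 mismatch, -0.62 at 101 sites with 2, -0.62 at 249 with 3, -0.47 at 213 with 4 and -0.43 at 128 with 5. At the ends stood 3 sites with a perfect match, at -0.52, and 22 sites with 6 mismatches, at -0.60. The SD over sites within each of these groups was between 0.40 and 0.86. The share called lower was highest at 2 mismatches (33%) and at 3 (32.4%), and 0 of the 3 perfect matches were called.

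Mismatches in the first copy, the PPARγ side, and in the second copy, the RXR side, were then counted apart. Medians by number of mismatches in the first copy lay between -0.61 and -0.48, with no order from 0 to 4. In the second copy they were -0.62 at 103 sites with none, -0.54 at 292 sites with 1, -0.51 at 269 with 2, -0.40 at 79 with 3 and -0.11 at 6 with 4. Odd-numbered and even-numbered barcodes gave -0.40 and -0.42 for the sites with 3. The rho values with the difference were 0.0176 for the first and 0.0608 for the second copy. The share called lower was between 26.5% and 32% with up to 2 mismatches in the second copy and 13.9% with 3, and the SD within groups was between 0.45 and 0.82.

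By single positions, contrasts were compared between bases held by at least 50 sites each. The widest was at position 3, just before the first copy, where the 98 sites with C had a median difference of -0.77 and the 74 with A -0.28, with T, the most common base, at -0.53. At position 13, the third base of the second copy, the 99 sites with T had -0.66, the 593 with the consensus base G -0.51 and the 55 with A -0.27. At position 8 the 63 sites with T had -0.78 and the 83 with A -0.69, while the 430 with the consensus base C had -0.47. At position 14 the 432 sites with the consensus base T had -0.63, against -0.41 at the 205 with G and -0.44 at the 88 with C. The consensus base thus went with the larger fall at position 14 and with the smaller at position 8. Odd-numbered and even-numbered barcodes put the same base at the larger fall in each of these contrasts. The positions were picked after the values were seen, and the SD of the difference within these groups was between 0.47 and 0.91. With an A as spacer the median was -0.55 (499 sites) and with a G -0.44 (225 sites), and by strand it was -0.52 on the plus strand (388 sites) and -0.51 on the minus strand (361 sites). The number of G and C bases had rho = 0.104 with the difference.

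Where w sites shared the same 16 bases, the size of the difference varied within the groups, and these gaps were not tested. The 750 sites held 734 different sequences, and 27 sites fell into 11 groups with a shared one. The 2 sites of the sequence attGGGGAGaAGGGCA, one on chromosome 4 and site 138 on chromosome 9, both fell, with differences of -1.99 and -2.68 (limma adjusted p = 0.000623 and 1.09e-06). The 2 sites of agcAAGGCAgAGGGAA, 99 and 413, also both fell, with differences of -1.25 and -1.70 (limma adjusted p = 0.00564 and 0.00092). With accAGGCCCaAGTTCA, site 592 on chromosome 11 had a difference of -1.91 (limma adjusted p = 0.000596) and site 218 on chromosome 19 had -0.94 (limma adjusted p = 0.0519). Of the other 8 groups, none held a called site. The largest of them, with tgtGGGTCAcAGGCCC, held 5 sites spaced along 1 stretch of chromosome 11 whose differences lay between -0.57 and 0.28.

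Many w sites lie next to each other in the genome. In 97 pairs, which involve 157 of the 750 sites, the starts of the 16-base sequences were under 150 bases apart. How much of each other's sequence such elements hold was not determined, because the element length is not given in the sources used here. Over these pairs the difference had rho = 0.219 and the native level rho = 0.408, as a description of pairs measured in the same libraries. By the limma call, both sites were lower in the altered form in 7 pairs, 1 site in 33 pairs and neither in 57 pairs. Of all tested w sites 28.5% were called lower, and the pair counts were not tested against that share.

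Most pairs with both sites called were among the closest ones. In 7 pairs the starts were 15 bases apart on the same strand, so that the 16-base sequences overlap by 1 base and the motifs stand in a row. In 5 of these 7 pairs both sites were called lower and in the other 2 pairs 1 site was, against 2 of 90 pairs with both called at larger distances. This contrast was noticed in the data and not tested. Among the 5 pairs was that of sites 93 and 77, and the call at site 77 was lost in the odd-numbered barcodes (limma adjusted p = 0.559). The sequences of 3 of these 5 pairs are shown as examples, in the order in which the coordinates run.
Site 125, chr8:90491378-90491393, plus strand: tctGGCCCAaAAGGCA
Site 126, chr8:90491393-90491408, plus strand: actAGGCCAgAGTTCA
Site 304, chr4:15865443-15865458, minus strand: aggAGGTGAgAGTTCT
Site 316, chr4:15865458-15865473, minus strand: actAGAGCAaAGGTTA
Site 138, chr9:31069961-31069976, minus strand: attGGGGAGaAGGGCA
Site 99, chr9:31069976-31069991, minus strand: agcAAGGCAgAGGGAA

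At the first pair, site 125 had medians of 0.59 in the altered and 1.89 in the native form, and site 126 of 0.01 and 2.94. At the second, site 304 had 0.47 in the altered and 2.99 in the native form, and site 316 had -0.49 and 1.28. At the third, site 138 had -0.15 in the altered and 2.53 in the native form, and site 99 had 1.11 and 2.35. All 6 were called lower by limma, with adjusted p between 6.85e-07 and 0.00564. The larger fall of each pair was at site 126, 304 or 138, and the gap within a pair was not tested.

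For 25 w sites the measurement was repeated in other libraries. Pool 4 had 34933524 RNA and 48475346 plasmid counts and pool 2 had 17716666 RNA and 46101162 plasmid counts, again from 1 library of each kind. Pool 4 held an element named mut and one named wt for each, and pool 2 held mut and the native motif in its own site, named bound0. Whether mut has the same changed bases as the altered form of pool 1 is not stated in the names. The mean difference over these sites was -1.65 ± 1.09 in pool 1, -1.36 ± 1.02 in pool 4 and -1.38 ± 1.07 in pool 2 (SD, n = 25 sites). The sites are not typical of the class, since 20 of them were called lower and 1 higher in pool 1. The sign was the same as in pool 1 at 24 of 25 sites in each of the other pools, and the difference correlated with that of pool 1 with rho = 0.815 in pool 4 and 0.883 in pool 2.

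Of the 10 sites with the largest fall, 5 were measured again, and sites 548, 660, 77, 519 and 201 were not. Site 100 had a difference of -3.38 in pool 1, -2.88 in pool 4 and -3.44 in pool 2, and site 126 had -2.93, -2.43 and -2.84. Site 142 had -2.94 in pool 1 and -2.91 in pool 2. Site 39 had -3.21, -3.18 and -1.87, and site 199 had -2.91, -1.94 and -1.80. The falls at site 39 in pool 2 and at site 199 in both repeats were thus smaller than in pool 1. Site 509, higher in the altered form in pool 1 by 1.41, was higher by 1.01 in pool 4 and by 1.49 in pool 2. The exceptions in sign were site 211, with -1.54 in pool 1 and 0.44 in pool 4, and site 705, with -0.12, -0.72 and 0.32. Site 705 was not called in pool 1 (limma adjusted p = 0.515).

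The sizes at other repeated sites agreed to varying degrees between pools. Site 322, the most active native element of pool 1, had differences of -1.74 in pool 1, -1.91 in pool 4 and -2.07 in pool 2, and site 707 had -1.68, -2.05 and -1.83. Site 591 had -2.42 in pool 1, -2.06 in pool 4 and -1.91 in pool 2. Smaller differences in the repeats were found at site 685, with -1.64 in pool 1, -0.28 in pool 4 and -0.91 in pool 2, and at site 413, with -1.70, -0.68 and -1.15. Site 92, with a difference of -0.76 in pool 1, had -0.93 in pool 4 and -1.59 in pool 2. The order of the sites was also kept for each form alone, as a description over 25 sites, with rho = 0.925 in pool 4 and 0.838 in pool 2 for altered levels and 0.918 and 0.959 for native levels.

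Native elements of 245 w sites were also measured in pool 5, from counts summed over barcodes. All 245 stood above the level of altered c elements in pool 1, and 167 of them were called lower there. Among tested w sites 211 of 448 above that level were called lower, and 212 of 745 in all. The median difference in pool 1 was -1.41 at the 245 sites and -0.28 at the 504 others. Native level of the 245 sites in pool 5 correlated with that in pool 1 with rho = 0.608 (r = 0.630), within a range already cut to active sites with larger falls. The difference of pool 1 and the native level of pool 5, which come from separate libraries, had rho = -0.355 over these sites.

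PPARγ binding to the plasmids of pool 1, by ChIP counts over input counts from 1 library each (1987761 and 1381624 counts), was available in both forms for 171 of the 212 sites called lower in activity. Median binding there was -0.19 in the altered and 0.46 in the native form, on the log2 scale of library shares. Its altered minus native difference had a median of -0.56 and was below 0 at 147 sites. At 368 of the 529 sites without an activity call, binding had medians of -0.16 in the altered and 0.20 in the native form, and the difference had a median of -0.35 and was below 0 at 253. The SD of the difference over sites was 0.75 and 0.89, so the groups overlapped widely, and lower binding in the altered form was common among sites with no call in activity. Of the 4 sites called more active in the altered form, 2 had binding values. Binding at both was lower in the altered form, as it was at most sites of the groups above. At site 485 binding was 0.91 in the altered and 2.22 in the native form, and at site 292 it was -0.78 and 0.40. Binding had no replicate library, and these differences were not tested.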

How the data were processed

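The authors deposited raw read counts, per barcode for pools 1 and 2 and summed over barcodes for pool 5, per the labels' series design text and the file headers. Pool 4 is described as summed, but its table held barcode columns and was used per barcode. Pool 1 ChIP and input counts were also deposited raw. Pools 3, 6 and 7 were used only to count elements. Build mm9 and, for ChIP, BWA 0.7.12 are named in the submitters' processing notes. The tool that counted reporter barcodes is not given in the sources used here.

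Activity was log2((RNA + 1)/(plasmid + 1)), scaled to library totals. Barcodes needed 20 plasmid counts, and an element was given the median of its barcodes. For w elements 93.9% of barcodes passed, and none of them had 0 RNA counts. Pool 5 needed 50 plasmid counts per element, and binding used the same formula for elements with at least 20 input counts. The lowest input count was 101, and what left some sites without a binding value was not determined. Barcodes were tested with limma 3.58.1 in R 4.3.3, for sites with at least 2 barcodes in each form, which left 5 w sites out. The fit compares barcode means, while printed levels are medians. The ratio of paired counts was modelled on the log2 scale. Other steps ran in Python 3.11.15 with pandas 2.3.3 and scipy 1.17.1. The fit was checked on simulated counts with the same barcode spread at every element, so the check does not cover outlying barcodes. Altered elements had a median of 6402 RNA and 11361.5 plasmid counts, and native elements of 10203 RNA and 11917.5 plasmid counts.

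Sites were named by rule, as the 10 largest called falls, up to 10 largest called rises, the 5 highest native, highest altered and lowest native levels, and the sites measured again. Other sites were named after their values were seen, as were the motif positions, the neighbouring pairs, the pool 5 and ChIP comparisons and the level set by altered c elements. Members, rules and lists were chosen with earlier results of these data known. Sequences on chromosome 18 are not printed.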

Additional observations from a re-analysis of the deposited data

How the results depend on the processing

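The mean altered minus native difference was -0.66, and it lay between -0.68 and -0.63 in the 10 alternatives tried (pseudocount, count minimum, mean or summed counts, subsets of barcodes, scaling, at least 5 barcodes). The count of 212 w sites lower in the altered form was 190 with no minimum beyond 1 plasmid count, 228 with at least 100 plasmid counts per barcode, and 195 by exact permutation of barcodes, with 3 higher. With the odd-numbered barcode columns it was 107, and with the even-numbered ones 98, with 1 higher in place of 4. These counts are of w sites alone, and the share over all sites in these settings is not given here. Scaling to the median barcode raised the mean levels to 0.11 in altered and 0.77 in native elements and left all differences as they were. The elements above the level of altered c elements fell to 76 altered and 284 native at its 99th percentile, a setting added after the data were seen. Over the named sites and all settings, 481 values were counted as the same, 22 lost the call and 1 gained it. Another 11 either changed sign at a site with no call or moved by more than the spread of its native barcodes. Part of this count was fixed beforehand. The mean over barcodes kept the main call, and exact permutation and a robust limma fit kept the main difference. Values without a test, as with summed counts, were the same if they kept their sign and moved by less than that spread. No paired analysis was possible because each library was made once, and leaving out a replicate library was not possible for the same reason. With up to 9 barcodes per element and 1 library of each kind, small differences at single sites were not resolved; whether barcode number or read depth sets this was not tested.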
